A study of Homo sapiens with 15 samples.

Results

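BEAS-2B cells carried with polyethylene terephthalate nanoplastics (PET-NPLs) for 30 weeks were compared with passage-matched control cells of the same time in culture, across all expressed genes and by pathway and cell state. The samples were those that the labels give as exposed (4) or control (3) at 30 weeks, which are 7 of the 15 RNA-seq samples of the series. BEAS-2B is an established, immortalised line of human bronchial epithelial origin, grown in all groups in DMEM with foetal bovine serum, non-essential amino acids and Plasmocin. The exposed cells received 50 µg/mL PET-NPLs, particles that the study prepared from plastic water bottles, renewed at each medium change, and the control cells received none. The line is a single cell culture model without the other cell types of the airway, and nothing in the sources used here says that the replicates of a group came from separate cultures, so p-values measure only the spread between these samples, which may be technical. All 7 samples belong to batch 2 in the labels, and the 8 samples of 24 h and 15 weeks, which are used here only for reference, belong to batch 1. Time in culture and batch therefore cannot be told apart when 30 weeks is set against the earlier samples.

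The control libraries of 30 weeks held 31459990, 30187920 and 30824693 counts, and the exposed libraries held 26535277, 30623950, 29855679 and 27615318. Levels are given in CPM, read counts scaled by library size over the 15 samples, and a count of 3, taken as the floor, was 0.104 to 0.129 CPM in these libraries. The 6 most abundant small noncoding RNAs (RMRP, RPPH1, SNORD3A, RN7SK, RN7SL1 and RN7SL2) took 31.03%, 22.3% and 26.76% of the control counts and 17.04%, 18.03%, 21.46% and 19.01% of the exposed counts, so their share was higher in each control library than in any exposed library. Their part in the other differences was not tested, although the number of genes called was 2382 without them and 2370 with them. Among the exposed samples, replicate 2 was unlike the others. Its Pearson correlation across genes with them was 0.973 to 0.980, against 0.991 to 0.992 among the other 3, and it lay at the far end of the second principal component, which held 19.2% of the variance, while the first component, with 62.1%, separated the 3 control from the 4 exposed samples. Counts of DEGs in gene lists are therefore given with their range when single samples were left out.

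The epithelial label was checked against marker genes. Keratin 8 and keratin 18, the simple epithelial keratins, were abundant in every sample (KRT8 at 127 CPM or above, KRT18 at 179 CPM or above). E-cadherin (CDH1) averaged 0.620 ± 0.213 CPM (SD, n = 3) in control and 0.565 ± 0.0101 CPM (SD, n = 4) in exposed cells, EPCAM stayed at or below 0.325 CPM, and the basal keratin KRT5 and the lung lineage factor NKX2-1 had no count in any of the 7 samples. The basal factor TP63 was also at or near 0. Vimentin (VIM), an intermediate filament of mesenchymal cells, averaged 1604 ± 236 CPM in control and 1288 ± 113 CPM in exposed cells and did not pass the test. Both groups therefore showed simple keratins and vimentin together with very little E-cadherin.

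Epithelial cells hold together through tight junctions, adherens junctions and desmosomes, which are anchored in keratin filaments and rest on a basement membrane of laminins and type IV collagens. Cells that lose this state express repressors such as the SNAI, ZEB and TWIST factors. Skeletal muscle identity, which a bronchial line would not ordinarily show, is driven by MYOD1 and myogenin, which bind E-box motifs and switch on genes of the contractile apparatus and of the neuromuscular synapse. The HOX clusters encode factors that keep a record of body position and are usually expressed as neighbouring blocks of genes.

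Of 28395 genes in the table, 15519 had enough counts to be tested at 30 weeks. By the quasi-likelihood test of edgeR with Benjamini-Hochberg adjustment, 2370 differentially expressed genes (DEGs, adjusted p under 0.05) were found, 15.3% of the genes tested, of which 1150 were upregulated (7.41%) and 1220 downregulated (7.86%) in exposed cells. For 4382 genes (28.2%) the 2 groups had no overlapping values, and 2320 of the DEGs were among them. The median log2 fold change of all tested genes was -0.0017. Large differences were more often decreases, with 141 DEGs at least 8-fold lower and 59 at least 8-fold higher in exposed cells. The number of DEGs depended on single libraries: it was 4336 without exposed replicate 2, 1345 without control replicate 1 and 1520 without exposed replicate 3. Below, a range in brackets after a count of DEGs in a gene list gives the lowest and highest count when any 1 of the 7 samples was left out, of which leaving out exposed replicate 2 gave the most calls in 50 of 55 lists and leaving out control replicate 1 the fewest in 44. Each count in a list is to be read against the 15.3% of all tested genes that were DEGs.

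**Figure D1:**
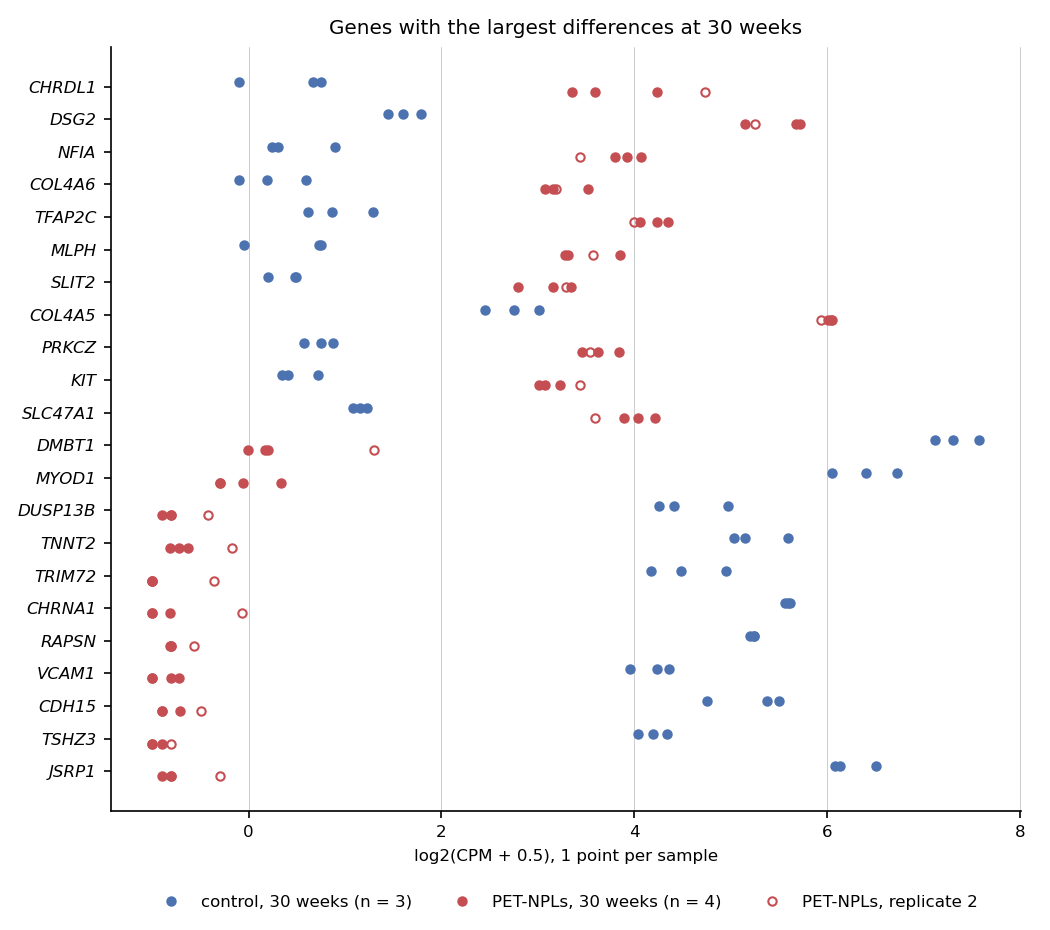
Level of 11 of the 12 most upregulated and 11 of the 12 most downregulated genes with a mean of at least 5 CPM, as log2(CPM + 0.5), with 1 point per sample (blue, 3 control samples; red, 4 exposed samples; open red, exposed replicate 2); a value of -1 is a level of 0. The exposed and control points of every gene are apart, and most of the genes that fell were at or near 0 in the exposed cells, with exposed replicate 2 often the highest of the 4.

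Many skeletal muscle genes were lower in the exposed cells. Of the tested members of the 2 muscle lists, 15 of 22 contractile genes and 15 of 20 myogenic regulators were DEGs, all of them lower. Those with the largest changes were near 0 in the exposed cells, while others kept a measurable level. The shares include genes that passed the filter on low counts only through the control cells. With at least 10 counts asked for in every sample, 5 members of each list were lower. MYOD1 (chromosome 11, 17719571 to 17722136, RefSeq GRCh38.p14), the master factor of myogenesis, was at 106, 65.8 and 84.4 CPM in the control samples and at 0.760, 0.315, 0.313 and 0.458 CPM in the exposed samples. No exposed sample came near the controls, and the log2 fold change was -7.53 (SE 0.30, adjusted p = 2e-07). CHRNA1 (chromosome 2, 174747592 to 174764472), the alpha subunit of the muscle acetylcholine receptor, was at 48.0, 48.5 and 46.7 CPM in control cells and at 0, 0.456, 0.0695 and 0 CPM in exposed cells (log2 fold change -8.46, SE 0.54, adjusted p = 4.12e-06). Its 3 control values lay within 2 CPM of each other, and the highest exposed value was that of replicate 2. TNNT2 (chromosome 1, 201359014 to 201377680), the cardiac troponin T also made by developing skeletal muscle, was at 35.1, 32.4 and 47.8 CPM against 0.145, 0.386, 0.0695 and 0.106 CPM (log2 fold change -7.74, SE 0.36, adjusted p = 5.67e-07), again with replicate 2 the highest of the exposed samples and no overlap.

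The list of myogenic regulators had 20 tested members, of which 15 were lower and 0 higher in exposed cells [15 to 15 lower, 0 to 2 higher]. The median log2 fold change was -3.99 against -0.0017 over all genes. With at least 10 counts in every sample, which removes genes near 0 in exposed cells, 5 were lower and the median was -1.35. The 15 downregulated members included the factors MYOD1, MYOG, MEF2C, PAX3, SIX4, EYA1, MSC and VGLL2. They also included the synapse and adhesion genes MUSK, CHRNA1, CHRNB1, CHRND, RAPSN and CDH15. RAPSN, which clusters the acetylcholine receptor, averaged 37.1 ± 0.737 CPM in control and 0.0969 ± 0.0522 CPM in exposed cells, and CDH15, the M-cadherin of myoblasts, 37.5 ± 9.67 against 0.0972 ± 0.0830 CPM. Myogenin (MYOG) averaged 2.67 ± 0.528 CPM in control cells and rested on 3 counts in all exposed samples, a ratio of 101.0 (95% counting interval 34.1 to 493.8). PAX7 and MYF5, factors of muscle stem cells and early myoblasts, and the myogenic factor MYF6 had no count in any of the 7 samples.

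Of 51 listed genes of the contractile apparatus, 22 were tested. Of these, 15 were lower and 0 higher in exposed cells [15 to 16 lower], with a median of -2.66. With at least 10 counts in every sample, which removes genes near 0 in exposed cells, 5 were lower and the median was -0.56. JSRP1, a protein of the calcium release complex, averaged 76.0 ± 12.6 CPM in control and 0.123 ± 0.129 CPM in exposed cells (log2 fold change -9.22, SE 0.37, adjusted p = 2e-07), the largest fitted decrease among genes with a mean of at least 5 CPM over the 7 samples, although the order of genes this close to 0 in exposed cells rests on few counts. DES, the muscle intermediate filament desmin, had a log2 fold change of -4.20, and the slow troponin T gene TNNT1 averaged 208 ± 25.1 CPM in control and 33.3 ± 4.97 CPM in exposed cells (log2 fold change -2.65, SE 0.16). Several genes of mature skeletal or cardiac muscle were low in both groups: ACTA1 and CKM stayed at or below 0.25 CPM, and MYH6, TNNI2, CASQ2 and TRDN had no count. MYH3, the embryonic myosin heavy chain, averaged 3.16 ± 0.444 CPM in control and 3.49 ± 0.533 CPM in exposed cells and did not pass the test. The summed level of the contractile list was 653.5, 560.3 and 579.6 CPM in the control samples and 150.7, 185.4, 159.7 and 177.2 CPM in the exposed samples, with TNNT1 the most abundant gene in control cells (208 CPM) and MYL6B, an embryonic and non-muscle light chain, in exposed cells (69.1 CPM). That of the myogenic regulators was 530.3, 463.5 and 518.5 CPM against 138.6, 125.4, 130.5 and 136.1 CPM, with MYOD1 the most abundant gene in control cells (85.3 CPM) and EYA4, a coactivator of homeobox factors, in exposed cells (38.7 CPM). In bulk samples, fewer cells of a type and less RNA per cell cannot be told apart.

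For MYOD1, TNNT2, JSRP1, RAPSN and CDH15, the control cells of 30 weeks lay outside the range of the earlier samples and the exposed cells inside it. For CHRNA1 and MYOG the controls were also far above the earlier samples, but the highest exposed sample lay slightly above them too. Of the 15 DEGs of each list, 6 myogenic regulators and 5 contractile genes had the controls outside and the exposed cells inside. EYA1 was the reverse, with the exposed cells outside and the controls inside. MYOD1 averaged 0.383 CPM in the controls of 24 h, 3.87 CPM in the controls of 15 weeks and 1.46 CPM in the exposed cells of 15 weeks. TNNT2 did not exceed 2.00 CPM and JSRP1 did not exceed 0.413 CPM in any of the 8 earlier samples. The summed level of the contractile list averaged 167.8 CPM in the control and 172.4 CPM in the exposed cells of 15 weeks, inside the range of the exposed cells of 30 weeks, and 218.3 CPM in the controls of 24 h, above it. That of the myogenic regulators averaged 144.2, 152.5 and 185.1 CPM in the same 3 groups, above the exposed cells and below the controls of 30 weeks.

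The other genes with the largest changes were of diverse kinds. Among abundant genes, the scaffold AHNAK2 (28.1 ± 7.02 against 205 ± 61.6 CPM) and the membrane protein STOM (57.2 ± 5.78 against 218 ± 39.7 CPM) rose, and the metabolic methyltransferase NNMT (537 ± 82.3 against 164 ± 11.3 CPM), the signal peptidase subunit SPCS3 (382 ± 72.3 against 124 ± 23.3 CPM) and the repressor ZBTB20 (221 ± 32.2 against 56.9 ± 12.4 CPM) fell. Among less abundant genes, the polarity kinase PRKCZ averaged 1.17 ± 0.174 CPM in control and 11.8 ± 1.41 CPM in exposed cells, and the melanosome linker MLPH had a log2 fold change of 3.54 (SE 0.31). None of these 7 genes showed overlap.

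Other genes outside the 2 muscle lists fell by comparable amounts. VCAM1, a cell adhesion receptor for leukocytes, averaged 17.8 ± 2.60 CPM in control and 0.0445 ± 0.0532 CPM in exposed cells (log2 fold change -8.53). TSHZ3, a zinc finger factor of neural and ureteric muscle development, averaged 17.8 ± 1.90 CPM in control cells against 3 counts in all exposed samples, a ratio of 673.1 (95% counting interval 229.9 to 3268). DMBT1, a secreted mucosal scavenger receptor, averaged 162 ± 26.5 CPM in control and 0.933 ± 0.690 CPM in exposed cells. DUSP13B, a phosphatase, and TRIM72, a membrane repair protein of muscle, had log2 fold changes of -7.74 and -8.28. Both were among the 12 largest decreases of genes with a mean of at least 5 CPM.

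E-box motifs in the promoters of the muscle genes were counted as a description, since the group moved together. The motif searched was CAGCTG, which reads the same on both strands, in the 250 bases before the start of each gene (RefSeq, GRCh38.p14). It was present in 13.8% of all promoters (3774 of 27305), in 12.8% of the promoters of genes tested at 30 weeks, and in 10 of the 26 promoters (38.5%) found for the 42 tested members of the 2 muscle lists. A match is only a description of these letters. The promoters of CHRNA1, TNNT2 and KLHL41 are shown because they belong to strongly downregulated muscle genes and carry the motif, printed in capitals, 75, 216 and 128 bases before the start of the gene. KLHL41, a sarcomere-associated kelch protein, averaged 11.3 ± 1.54 CPM in control and 0.219 ± 0.131 CPM in exposed cells.
CHRNA1, minus strand, chr2:174764473-174764722: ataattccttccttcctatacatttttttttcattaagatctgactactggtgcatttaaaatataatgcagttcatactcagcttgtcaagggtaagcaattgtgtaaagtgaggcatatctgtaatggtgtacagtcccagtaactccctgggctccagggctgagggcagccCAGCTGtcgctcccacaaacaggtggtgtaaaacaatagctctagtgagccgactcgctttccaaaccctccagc
TNNT2, minus strand, chr1:201377681-201377930: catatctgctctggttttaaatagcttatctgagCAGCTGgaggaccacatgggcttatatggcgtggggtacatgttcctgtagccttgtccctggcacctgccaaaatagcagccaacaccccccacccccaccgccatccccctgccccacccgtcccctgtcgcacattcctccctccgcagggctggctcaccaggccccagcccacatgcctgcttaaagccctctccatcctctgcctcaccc
KLHL41, plus strand, chr2:169509452-169509701: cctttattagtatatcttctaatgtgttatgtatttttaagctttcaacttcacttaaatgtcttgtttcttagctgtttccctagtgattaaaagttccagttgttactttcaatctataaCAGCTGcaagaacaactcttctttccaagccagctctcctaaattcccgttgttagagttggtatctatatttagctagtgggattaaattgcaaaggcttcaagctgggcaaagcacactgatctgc

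Of 32 tested epithelial adhesion genes, 8 were higher in the exposed cells and 0 lower [7 to 11 higher], and 24 did not pass the test, with a median log2 fold change of 0.33. DSG2 (chromosome 18, 31498177 to 31549008), a desmosomal cadherin, was at 2.54, 2.96 and 2.22 CPM in control cells and at 52.4, 37.8, 34.9 and 50.7 CPM in exposed cells. The lowest exposed value was more than 10 times the highest control value, and the log2 fold change was 4.08 (SE 0.22, adjusted p = 1.33e-06). Desmoplakin (DSP), which ties desmosomes to keratins, averaged 4.89 ± 0.924 CPM in control and 24.1 ± 5.61 CPM in exposed cells (log2 fold change 2.28, SE 0.23), and P-cadherin (CDH3) 0.616 ± 0.279 against 4.45 ± 1.12 CPM. The others were the tight junction genes CLDN1 (log2 fold change 2.04), OCLN (0.96), F11R (1.22) and CXADR (0.85) and the protease inhibitor SPINT1 (1.59). The call of CXADR was lost without control replicate 1 (highest adjusted p over the alternatives 0.0767). E-cadherin did not pass the test, as given above.

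Among keratins and plakins, 5 of 17 tested genes were higher [4 to 5] and 3 lower [0 to 4]. KRT8 was at 187, 136 and 127 CPM in control and 598, 541, 710.1 and 617 CPM in exposed cells (log2 fold change 2.03, SE 0.19, adjusted p = 4.45e-05). Its partner KRT18 was at 219.7, 179 and 184 CPM against 313, 331, 382 and 328 CPM (log2 fold change 0.79, adjusted p = 0.00468), and neither gene showed overlap. KRT19 and KRT15 were also upregulated in exposed cells. KRT7 had 1.93 ± 0.708 CPM in control and 1.92 ± 0.944 CPM in exposed cells, while it averaged 1315 CPM in the controls of 24 h, so both groups of 30 weeks were far below the early cells. The plakin PPL was lower (7.55 ± 3.22 against 3.05 ± 1.19 CPM, adjusted p = 0.0322), a call that was lost without control replicate 1 or 3 or without exposed replicate 1 or 3 (highest adjusted p 0.125).

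Of 13 tested factors of epithelial to mesenchymal transition, 5 were lower, among them SNAI2, SOX9, ZEB1 and TWIST1, and 2 higher, FOXC1 and PRRX2 [4 to 5 lower, 2 to 2 higher]. SNAI2, a repressor of epithelial junction genes, was at 27.1, 26.9 and 24.4 CPM in control and 2.10, 3.43, 2.88 and 2.39 CPM in exposed cells (log2 fold change -3.28, SE 0.18, adjusted p = 1.65e-06). ZEB1, another repressor, averaged 28.7 ± 1.23 CPM against 13.4 ± 0.981 CPM (log2 fold change -1.11, SE 0.13), and TWIST1 26.0 ± 2.46 against 12.8 ± 1.18 CPM. The groups did not overlap for any of these 3 genes. The homeobox factor PRRX2, by contrast, averaged 6.03 ± 1.08 CPM in control and 14.6 ± 3.04 CPM in exposed cells.

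Mesenchymal markers did not move as a group: 7 of 25 tested members were higher [6 to 7] and 4 lower [2 to 7]. Among the higher were N-cadherin (CDH2), CD44, the collagen receptor DDR2, fibulin 1 (FBLN1), tenascin C (TNC) and transgelin (TAGLN). FBLN1 averaged 7.37 ± 2.16 CPM in control and 58.1 ± 19.9 CPM in exposed cells (log2 fold change 2.97, SE 0.33). Among the lower were MME, a membrane peptidase, and NES, the intermediate filament nestin of muscle and neural progenitors, at 12.8 ± 5.81 CPM against 0.185 ± 0.135 CPM (log2 fold change -6.08, SE 0.49). Of 23 smooth muscle genes, 3 were higher [2 to 8], among them TAGLN and LMOD1, and 1 lower [1 to 2], PDLIM3, and without exposed replicate 2 there were 8 higher and 2 lower. The share of 17.4% was near the 15.3% of all genes. Of 39 airway lineage genes only 13 had enough counts to be tested. Among these, 1 was higher [1 to 2] and 5 were lower [3 to 6], among them ITGB4, the hemidesmosome integrin (61.4 ± 26.8 against 12.3 ± 5.63 CPM), and the water channel AQP3.

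Markers of other cell types were few. Of 20 leukocyte markers 5 were tested, with CD14 higher (1.48 ± 0.297 against 4.91 ± 0.812 CPM) and CD68, which epithelial cells also express, lower (28.1 ± 3.90 against 14.5 ± 2.25 CPM), while CD3E, MS4A1, FCGR3A, GNLY, S100A8 and S100A9 had no count in the 7 samples. The summed leukocyte level was 28.6 to 35.5 CPM in control and 21.1 to 24.9 CPM in exposed cells. Of 16 endothelial markers 7 were tested, with 3 higher [1 to 3], among them VWF and EGFL7, and TIE1 lower [0 to 1]. The calls of VWF and TIE1 were lost without control replicate 1, that of TIE1 also without control replicate 2, and that of EGFL7 without control replicate 2 or 3 (highest adjusted p 0.0673, 0.0573 and 0.0662), and EMCN, PLVAP and MMRN1 had no count.

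**Figure D2:**
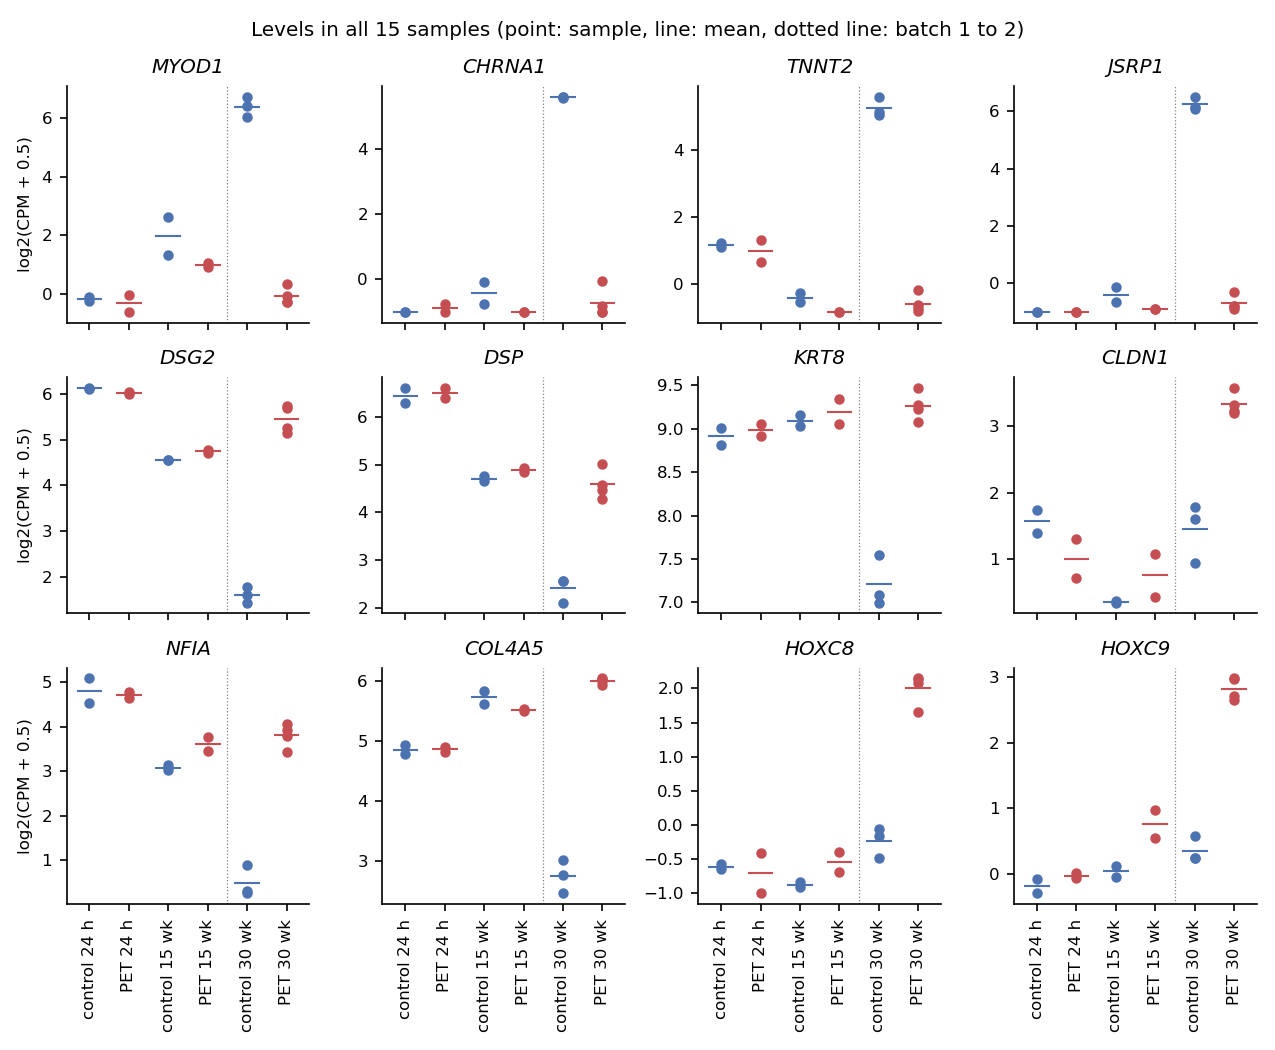
Level of 12 genes as log2(CPM + 0.5) in all 15 samples by exposure (blue, control; red, PET-NPLs) and time, with 1 point per sample and a line at the mean; each panel has its own axis, and the dotted line separates batch 1 from batch 2. For the muscle genes and for DSG2, DSP, KRT8, NFIA and COL4A5 the 30-week controls lie furthest from the earlier samples, whereas for CLDN1, HOXC8 and HOXC9 the 30-week exposed cells do.

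The position of each 30-week group relative to the 8 earlier samples was described for all DEGs. In 386 of 2370 DEGs (16.3%), every control sample of 30 weeks lay outside the range of the earlier samples while every exposed sample lay inside it, and in 150 (6.33%) it was the exposed samples that lay outside and the controls inside. In 483 (20.4%) both groups lay outside, and the other 1351 belonged to none of these classes. Over all tested genes the 3 shares were 3.21%, 1.31% and 27.95%. Among upregulated DEGs 148 had only the controls and 114 only the exposed cells outside, and among downregulated DEGs 238 and 36. The classes rest on 3 control and 4 exposed samples, and their difference was not tested. At a mean of at least 5 CPM, 10 of the 12 largest decreases had the controls outside and the exposed cells inside. Of the 12 largest increases at that level, 6 did. GPRC5A, a lung-enriched receptor, was of the other kind: it averaged 75.1 ± 7.03 CPM in control and 239.5 ± 45.6 CPM in exposed cells, with 63.8 to 84.8 CPM in the earlier samples. Among DEGs with a change of at least 2-fold and a mean of at least 1 CPM, 57 higher and 12 lower genes had only the exposed cells outside the earlier range.

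HOX genes differed by cluster. All 7 tested HOXC genes were upregulated, with a median log2 fold change of 3.26, whereas 4 of 7 tested HOXB genes were downregulated (HOXB2, HOXB4, HOXB6 and HOXB7, median -0.78) and 1 of 7 HOXA genes, HOXA3, was upregulated (median 0.43). The calls of HOXB4 and HOXB7 were lost when any single sample but exposed replicate 2 and, for HOXB7, exposed replicate 3 was left out (highest adjusted p 0.151 and 0.177), and HOXB4 was a DEG in only 5 of 18 alternative settings. Also lost were the calls of HOXA3, HOXC5 and HOXC11 without control replicate 1 or 2 (highest adjusted p 0.0791, 0.105 and 0.112), and of HOXA3 also without exposed replicate 3. HOXC4 and HOXC5 averaged below 0.1 CPM in control cells, so their fitted fold changes depend on few counts, and HOXC11 rested there on 2 counts, a ratio of 14.3 (95% counting interval 3.71 to 121.8). HOXC9 (chromosome 12, 54000161 to 54003337), a factor of the thoracic level, was at 0.989, 0.686 and 0.680 CPM in control and 5.76, 7.32, 7.41 and 6.06 CPM in exposed cells (log2 fold change 3.07, SE 0.23, adjusted p = 1.01e-05). Its range in the earlier samples was 0.315 to 1.46 CPM, so that here the exposed cells were apart. HOXC6 and HOXC8 averaged 0.290 ± 0.0336 and 0.359 ± 0.129 CPM in control cells and 2.95 ± 0.333 and 3.56 ± 0.604 CPM in exposed cells. HOXC4, HOXC5 and HOXC6 have overlapping loci, and the strand setting of the counting is not given in the sources used here, so their reads may not be fully separated. Over the whole list of 30 HOX genes and partners, 10 were higher and 6 lower [6 to 10 higher, 4 to 6 lower]. The HOXC counts include genes that passed the filter on low counts only through the exposed cells. With at least 10 counts asked for in every sample, HOXC9 was the only HOXC gene left. Under that filter 3 genes of the whole list were higher and 4 lower, with a median of 0.12 in place of 0.37. PKNOX2, a HOX cofactor, had a mean of 2.75 ± 0.377 CPM in control cells and no count in any exposed sample, so it was at least 25.3-fold lower.

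Of 61 other developmental transcription factors, 15 were higher [8 to 23] and 13 lower [13 to 14]. NFIA, a nuclear factor I protein, averaged 0.926 ± 0.377 CPM in control and 13.7 ± 2.52 CPM in exposed cells (log2 fold change 3.86, SE 0.29). TFAP2C, an ectodermal and trophoblast factor, was at 1.03, 1.95 and 1.32 CPM against 19.9, 15.5, 16.2 and 18.3 CPM (log2 fold change 3.58, SE 0.23), without overlap. The homeobox factors IRX1 and ISL1 were also higher, with log2 fold changes of 2.97 and 3.46, and GATA3, EBF1, EBF3, IRX3 and RUNX2 were lower.

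Of 29 tested basement membrane genes, 9 were higher [8 to 12] and 3 lower [2 to 4], with a median of 0.33. COL4A5 (chromosome X, 108439838 to 108697545), which encodes the alpha 5 chain of type IV collagen, was at 4.99, 7.54 and 6.26 CPM in control and 65.3, 60.8, 65.8 and 63.9 CPM in exposed cells (log2 fold change 3.34, SE 0.18, adjusted p = 1.15e-06). Its head-to-head neighbour COL4A6 changed alike, from 0.695 ± 0.294 to 8.97 ± 1.34 CPM. The laminin genes LAMA3, LAMB1 and LAMC1 were higher, and COL15A1, a collagen of muscle and vessel basement membranes, was lower (4.20 ± 0.388 against 0.733 ± 0.493 CPM).

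Other matrix genes went in both directions. Fibronectin (FN1) was at 93.0, 119 and 132 CPM in control and 725, 405, 546 and 507 CPM in exposed cells (log2 fold change 2.24, SE 0.23, adjusted p = 9.95e-05), without overlap. It averaged 2320 CPM in the controls of 24 h and 212 CPM in those of 15 weeks. Together with TNC, FBLN1, CCN2, CCN3 and MATN2 it was among the 10 higher genes of 35 elastic and matricellular genes [6 to 13], of which 4 were lower [4 to 5]. CCN3, a matricellular regulator, was at 3.87, 5.05 and 3.62 CPM against 32.5, 29.9, 23.5 and 26.9 CPM, and the exposed values exceeded every earlier sample. The fibrillar collagen list had 4 higher [2 to 7] and 6 lower [6 to 7] genes of 39, and 7 in each direction without exposed replicate 2. The 2 chains of type I collagen differed in direction: COL1A1 averaged 55.3 ± 33.8 CPM in control and 7.36 ± 1.88 CPM in exposed cells, and COL1A2 0.312 ± 0.326 against 3.20 ± 1.57 CPM. COL25A1 averaged 5.40 ± 1.19 CPM in control cells and rested on 1 count in the exposed samples, a ratio of 620.5 (95% counting interval 110.8 to 24560).

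Proteoglycans were more often lower, with 10 of 33 tested members lower [8 to 12] and 4 higher [2 to 7], and a median of -0.22. Versican (VCAN), a large matrix proteoglycan, was at 77.0, 89.2 and 96.3 CPM in control and 1.88, 4.24, 1.63 and 2.18 CPM in exposed cells (log2 fold change -5.15, SE 0.30, adjusted p = 2.22e-06), with replicate 2 the highest of the exposed samples. PRELP, a small leucine-rich proteoglycan, was lower, and the heparan sulphatase SULF1 was higher. Among 45 matrix proteases and inhibitors, 9 were higher [4 to 12] and 8 lower [8 to 9]. ADAMTS5, an aggrecanase, averaged 31.5 ± 5.23 CPM in control and 0.429 ± 0.291 CPM in exposed cells (log2 fold change -6.18), and the membrane protease MMP15 averaged 6.38 ± 0.875 against 18.8 ± 3.23 CPM. The serine protease HTRA1, one of the most abundant genes that fell, was at 962, 858 and 830.0 CPM in control and 229, 228, 225 and 212 CPM in exposed cells (log2 fold change -1.99, SE 0.14). Integrins ITGA2, ITGB3 and ITGB8 were higher and ITGA7, the laminin receptor of muscle, and ITGB4 were lower, out of 17 tested [3 to 3 higher, 2 to 4 lower, with 4 lower without exposed replicate 2].

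Growth factor receptors and their ligands were upregulated in 20 of 55 tested genes [14 to 21] and downregulated in 9 [5 to 10], with a median of 0.21. KIT, the stem cell factor receptor, was at 0.774, 0.830 and 1.15 CPM in control and 8.91, 10.3, 7.93 and 7.57 CPM in exposed cells (log2 fold change 3.22, SE 0.23, adjusted p = 6.82e-06), without overlap. MET and FGFR3 were among the other receptors that were higher. Of the ligands, TGFA, which activates the epidermal growth factor receptor, averaged 2.27 ± 0.322 against 10.6 ± 1.01 CPM, and VEGFA 3.89 ± 0.860 against 10.5 ± 1.38 CPM. NRG1 was lower, as was FGFR4, a receptor of the myogenic lineage (27.2 ± 6.61 against 5.53 ± 1.00 CPM). The KIT level was 7.85 to 17.9 CPM in the 8 earlier samples, so the control cells of 30 weeks were the low group. Transcriptional feedback genes of the MAPK cascade did not stand out, with 2 of 29 higher and 2 lower [1 to 2 higher, 0 to 6 lower]. DUSP4, a phosphatase of the cascade, averaged 10.5 ± 1.35 against 26.0 ± 4.18 CPM, and cyclin D1 (CCND1) 63.1 ± 12.7 against 24.6 ± 10.8 CPM, a call that was lost without control replicate 1 (adjusted p = 0.0903 by the same test). Of 24 AP-1 and immediate early genes, 2 were higher [0 to 3] and 4 lower [1 to 4], and the calls of JUN, JUNB and ATF3 were each lost when any of the 3 control samples was left out, and also without exposed replicate 1, 3 or 4 (highest adjusted p 0.179, 0.190 and 0.0939). JUN was a DEG in 9, JUNB in 6 and ATF3 in 11 of 18 alternative settings.

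In the IGF axis 7 of 20 tested genes were higher [4 to 10] and 5 lower [5 to 5]. IGFBP7 (chromosome 4, 57030773 to 57110385), a secreted binding protein, was at 19.2, 25.6 and 20.6 CPM in control and 166, 191, 193 and 190.4 CPM in exposed cells (log2 fold change 3.08, SE 0.16, adjusted p = 1.15e-06), the largest increase among genes with a mean of at least 100 CPM over the 7 samples. IGFBP2 and IGFBP4 were also higher, while IGFBP3 (168 ± 24.5 against 73.0 ± 10.3 CPM), IGFBP5 and IGFBPL1 were lower. The binding proteins thus differed in direction.

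In the TGF-beta and BMP list 7 of 50 tested genes were higher [4 to 11] and 9 lower [7 to 13]. The secreted BMP antagonists moved in opposite directions. CHRDL1 (chordin-like 1) was at 0.430, 1.08 and 1.18 CPM in control and 18.4, 26.2, 11.6 and 9.72 CPM in exposed cells (log2 fold change 4.15, SE 0.44, adjusted p = 0.000122), the largest increase among genes with a mean of at least 5 CPM over the 7 samples. NOG (noggin) was at 71.7, 63.5 and 51.1 CPM against 10.8, 17.4, 12.4 and 7.46 CPM (log2 fold change -2.38, SE 0.25, adjusted p = 0.000109). Neither gene showed overlap. The BMP-responsive genes ID1, ID2 and ID3 were all lower, although the call of ID1 was lost without control replicate 1 (adjusted p = 0.0508) and that of ID3 without control replicate 1 or 2 or exposed replicate 1 or 4 (highest adjusted p 0.143). ID2, which inhibits basic helix-loop-helix factors, was at 277, 292 and 182 CPM in control and 34.6, 78.7, 46.6 and 28.7 CPM in exposed cells (log2 fold change -2.42, SE 0.32).

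Of 39 Wnt genes, 5 were higher [4 to 9] and 5 lower [3 to 5]. The ligands WNT5B (7.57 ± 1.76 against 41.9 ± 10.6 CPM), WNT7B and WNT5A were higher, and WNT10A and the target genes LEF1 and SP5 were lower. In the Notch and Hedgehog list 5 of 32 were higher [3 to 9] and 9 lower [5 to 9]. The ligand DLL1 averaged 4.47 ± 1.43 CPM in control and 0.292 ± 0.0802 CPM in exposed cells, and the target HEY1 6.47 ± 0.163 against 0.609 ± 0.111 CPM (log2 fold change -3.41, SE 0.21), whereas the target HES4 was higher. YAP and TEAD target genes were higher in 9 of 31 [5 to 13] and lower in 2 [2 to 3], with CCN2 at 96.0 ± 17.1 against 219.9 ± 39.4 CPM and tissue factor (F3) at 35.9 ± 5.98 against 83.4 ± 19.04 CPM.

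Among guidance genes, 15 of 51 semaphorins, ephrins, netrins, slits and their receptors were higher [9 to 17] and 9 lower [5 to 11]. SLIT2, a repulsive cue, averaged 0.814 ± 0.146 CPM in control and 8.46 ± 1.44 CPM in exposed cells (log2 fold change 3.35, SE 0.24). Its receptor ROBO2 and the netrin NTN1 were lower, and the ephrin receptor EPHB3 averaged 19.9 ± 5.28 against 1.20 ± 0.391 CPM (log2 fold change -4.06, SE 0.28). Of 31 protocadherins 1 was higher and 5 lower [2 to 6], with PCDHGB2 at 4.36 ± 0.551 against 1.93 ± 0.519 CPM. This share, 19.4%, was near the 15.3% of all genes. Of 28 neuronal adhesion and synapse genes 6 were higher [5 to 10], among them AUTS2 (0.476 ± 0.121 against 7.23 ± 1.92 CPM) and DPYSL3, and 5 lower [3 to 5], among them NEGR1 (5.75 ± 0.942 against 0.933 ± 0.466 CPM).

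Interferon-stimulated genes were split. Of 51 tested, 11 were higher [6 to 15] and 7 lower [2 to 11]. MX1, an antiviral GTPase, was at 6.79, 9.42 and 10.6 CPM in control and 27.8, 20.2, 24.4 and 31.8 CPM in exposed cells (log2 fold change 1.53, SE 0.21, adjusted p = 0.000728), above the 1.77 to 17.3 CPM of the earlier samples. BST2, which tethers virions, averaged 1.94 ± 1.02 against 11.2 ± 3.14 CPM, and MX2 and OAS1 were higher. The RNA sensor RIGI was among the lower genes, at 24.3 ± 4.19 against 10.1 ± 2.33 CPM. Antigen presentation genes were higher in 7 of 36 [5 to 8] and lower in 1 [0 to 3], with the stress ligands ULBP1 and MICB among the higher. The lower gene, CD274, which encodes PD-L1, averaged 10.5 ± 1.10 against 6.80 ± 1.20 CPM (adjusted p = 0.0323) and was no longer a DEG when control replicate 1, 2 or 3 or exposed replicate 1, 3 or 4 was left out (highest adjusted p 0.128).

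Of 44 cytokine, chemokine and NF-kB target genes, 9 were higher [6 to 11] and 8 lower [8 to 13]. ICAM1, an adhesion receptor induced by inflammation, was at 5.29, 5.42 and 5.15 CPM in control and 28.0, 20.4, 18.9 and 24.9 CPM in exposed cells (log2 fold change 2.11, SE 0.18, adjusted p = 2.93e-05), and no earlier sample exceeded 8.26 CPM. Its relative VCAM1 went the other way, as given above. IL7R (43.7 ± 8.53 against 152 ± 56.5 CPM), the receptor of interleukin 7, was higher, as was the receptor gene CSF2RA (0.307 ± 0.238 against 6.24 ± 0.454 CPM), which lies in the pseudoautosomal region, so that its reads may be shared with the Y copy. SOD2, the mitochondrial superoxide dismutase and a target of NF-kB, averaged 95.6 ± 5.23 against 47.2 ± 1.78 CPM (log2 fold change -1.03), and TNFAIP3, NFKBIZ and IL15 were lower. Complement, coagulation and inhibitor genes had 6 higher [4 to 11] and 3 lower [2 to 6] of 32, with the protease receptor F2RL1 among the higher (2.05 ± 0.275 against 10.6 ± 1.14 CPM).

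Of 32 tested genes of cholesterol synthesis and uptake, 15 were higher in exposed cells and 0 lower [10 to 21 higher, the fewest without control replicate 1], and 17 did not pass the test, with a median of 0.55. The share called was 46.9%, against 15.3% over all genes. LSS (lanosterol synthase) was at 91.1, 76.8 and 108 CPM in control and 278, 155, 239.6 and 281 CPM in exposed cells (log2 fold change 1.36, SE 0.23, adjusted p = 0.0024), without overlap and with replicate 2 the lowest of the exposed samples. HMGCS1, the synthase at the head of the pathway, averaged 66.4 ± 4.45 against 130.5 ± 15.4 CPM. The sterol transporter STARD4 had 32.2 ± 5.42 against 72.04 ± 6.36 CPM, and the pathway enzymes FDFT1, SQLE, CYP51A1, TM7SF2, MSMO1 and NSDHL were also higher. The sterol motif TCACNCCAC was found on either strand in 1 of 25 promoters of the list and in 0.875% of all promoters. Fatty acid genes were higher in 9 of 39 [3 to 12], among them CPT1A, which imports fatty acids into mitochondria, and the regulator PPARG (0.570 ± 0.390 against 2.84 ± 1.03 CPM), and lower in 2 [0 to 6].

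Of 26 genes of the aryl hydrocarbon receptor and xenobiotic enzymes, 9 were higher [6 to 11] and 3 lower [1 to 5]. ALDH1A3, which makes retinoic acid, averaged 2.57 ± 0.354 CPM in control and 15.0 ± 0.640 CPM in exposed cells, below the 31.9 to 328 CPM of the earlier samples, and EPHX2, an epoxide hydrolase, 0.683 ± 0.312 against 3.79 ± 0.0989 CPM. CYP1B1 was higher, and the receptor's repressor AHRR was lower (113 ± 22.9 against 54.5 ± 16.1 CPM), a call that was lost without control replicate 1 or 3 (highest adjusted p 0.0667). The NRF2 and glutathione list held 6 higher [2 to 10] and 3 lower [1 to 9] of 48 genes, a share of 18.75%, near the 15.3% of all genes. Thioredoxin reductase TXNRD1 was higher (449 ± 75.2 against 896 ± 195 CPM, adjusted p = 0.00868), although not without control replicate 1 (adjusted p = 0.055). Of 21 metallothionein and metal genes 1 was higher [0 to 1] and 4 lower [3 to 7]. MT1E was at 213, 134 and 93.5 CPM in control and 28.6, 48.3, 36.8 and 33.5 CPM in exposed cells (log2 fold change -2.00, SE 0.26), and MT1X and MT1M were also lower. Reads of this family may be shared between its near-identical members.

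Stress and organelle lists stayed nearer to the background. The unfolded protein and heat shock list had 4 higher [1 to 7] and 3 lower [2 to 4] of 40 genes, the ATF4 list 5 [2 to 8] and 2 [2 to 3] of 40, and the hypoxia and glycolysis list 4 [3 to 10] and 6 [4 to 12] of 45. Their shares were 17.5%, 17.5% and 22.2%, against 15.3% over all genes. DDIT4, a stress-induced inhibitor of mTORC1, averaged 66.0 ± 12.2 against 15.6 ± 2.95 CPM (log2 fold change -2.09), and the chaperone HSPA5 158 ± 34.1 against 302 ± 69.2 CPM, a call that was lost without control replicate 1 or 2 or exposed replicate 3 (highest adjusted p 0.0904). Of 66 lysosome and autophagy genes 5 were higher [2 to 10] and 4 lower [1 to 6], with GABARAPL1 at 18.2 ± 1.81 against 41.8 ± 6.60 CPM. Of 46 genes of endocytosis and particle uptake, which the exposure makes of interest, 6 were higher [3 to 11] and 3 lower [2 to 7], a share of 19.6% against 15.3% over all genes. The scavenger receptor SCARB1 averaged 28.4 ± 4.99 against 69.5 ± 17.4 CPM, and the caveolar protein CAVIN2 49.2 ± 6.81 against 11.1 ± 1.77 CPM. Ion channels (13 higher [8 to 15] and 10 lower [9 to 11] of 49) and solute transporters (17 higher [9 to 20] and 9 lower [6 to 10] of 57) were affected in both directions. The drug and toxin extruder SLC47A1 averaged 1.72 ± 0.115 CPM in control and 15.0 ± 2.71 CPM in exposed cells, and the calcium pump ATP2B1 164 ± 13.98 against 60.2 ± 14.8 CPM.

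The DNA replication, mitosis and DNA repair lists held few DEGs. Of 57 DNA replication genes 2 were higher [1 to 5] and 1 lower [0 to 3], of 63 mitosis genes 4 were higher [1 to 7] and 0 lower [0 to 4], and of 83 DNA repair genes 3 were higher [2 to 11] and 1 lower [1 to 6], shares below the 15.3% of all genes. MYBL2, a cell cycle transcription factor, averaged 114 ± 27.6 against 249.8 ± 53.6 CPM (log2 fold change 1.12, SE 0.22, adjusted p = 0.00718). The proliferation marker MKI67 was at 169.6, 199.6 and 278 CPM in control and 506, 287, 327 and 392 CPM in exposed cells (log2 fold change 0.80, adjusted p = 0.0461). These groups lay close together, and the call was lost when control replicate 1 or 2 or exposed replicate 1, 3 or 4 was left out, with upper-quartile scaling and with a minimum of 10 counts in every sample (highest adjusted p 0.179). CCNE1 was higher (1.51 ± 0.413 against 4.01 ± 0.489 CPM), and of 39 CDK inhibitors and damage response genes 3 were higher [1 to 5] and 6 lower [2 to 8], a share of 23.1%, including GDF15 (6.09 ± 1.69 against 2.92 ± 0.295 CPM).

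The counts of DEGs among histone, oxidative phosphorylation and ribosomal protein genes depended on exposed replicate 2. Of 60 replication-dependent histone genes 22 were lower and 0 higher [5 to 45 lower, 0 to 1 higher], with a median of -0.67, and without exposed replicate 2 there were 45 lower, against 5 or 6 when control replicate 1 or 2 or exposed replicate 1, 3 or 4 was left out. H3C1 was at 441, 330.1 and 235 CPM in control and 82.1, 128, 125 and 132 CPM in exposed cells (log2 fold change -1.53, SE 0.23, adjusted p = 0.00112), without overlap. Of 60 oxidative phosphorylation genes 4 were lower (median -0.43), 35 without exposed replicate 2, and none without control replicate 1 or 2. Of 75 cytosolic ribosomal protein genes none passed the test (median -0.46), but 52 were lower without exposed replicate 2. The summed level of the ribosomal protein genes was 62810, 48490 and 36120 CPM in control and 27110, 49660, 37070 and 28480 CPM in exposed cells, so the groups overlapped. Across all genes, fold changes were also described by transcript length, without a comparison of these lists with genes of the same length. Among 10270 protein-coding genes with a length and a mean of at least 5 CPM, the median log2 fold change went from -0.17 in the 512 genes of up to 600 nt to 0.19 in the 1141 genes over 5000 nt. The trend differed within groups: for the longest genes the median deviation was -0.221 in control replicate 1 and -0.023 in control replicate 3, and 0.181 in exposed replicate 1 and -0.034 in exposed replicate 2. Small RNA classes had medians of -0.77 for 122 tRNAs, -0.60 for 34 snRNAs and -0.44 for 197 snoRNAs, against 0.02 for protein-coding genes. The part of length or library composition in these results was not tested.

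In the list of cancer-testis antigens and related MAGE genes, 4 of 12 tested genes were lower [4 to 5] and none higher. MAGED4 averaged 8.05 ± 1.23 CPM in control cells and had no count in any exposed sample, so it was at least 74.1-fold lower. It has a near-identical copy, MAGED4B, with which reads may be shared. MAGED4B was also lower, so the 2 genes may not be separate changes. MAGEA12 averaged 5.50 ± 2.89 against 0.688 ± 0.367 CPM. Of 26 imprinted genes 6 were lower [4 to 7] and 3 higher [3 to 6]. H19, a noncoding RNA of embryonic tissues and of developing muscle, was at 88.4, 57.3 and 109.6 CPM in control and 0.254, 1.58, 0.278 and 0.563 CPM in exposed cells (log2 fold change -6.99, SE 0.49, adjusted p = 6.82e-06), and at or below 1.68 CPM in the earlier samples. Chromatin regulators had 3 higher [1 to 9] and 3 lower [1 to 6] of 85. CBX2, a Polycomb subunit, averaged 2.67 ± 0.529 against 9.71 ± 0.706 CPM, and SMARCD3, a subunit of the muscle and cardiac BAF complex, 42.4 ± 2.90 against 14.6 ± 0.944 CPM.

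The median fold change differed between chromosomes, although most genes of each chromosome were not DEGs in the fit of all 7 samples. Without exposed replicate 2, most genes of chromosomes 21 and 4 were DEGs, but DEGs over all chromosomes also rose, from 2370 to 4336. Genes of chromosome 21 had a median log2 fold change of 0.54, with 64 higher and 8 lower of 166 tested, and the median deviation of its genes was -0.25, -0.261 and -0.331 in the control samples and 0.205, 0.154, 0.211 and 0.194 in the exposed samples, with no overlap. Without exposed replicate 2 its median was 0.54, with 87 higher and 9 lower. Chromosome 13 had a median of 0.30 (48 higher and 11 lower of 280), with exposed replicate 2 at 0.244 against 0.025 to 0.073 in the other exposed samples and -0.229 to -0.04 in the controls. Without that library the median was 0.25 (70 higher and 21 lower of 276), and without control replicate 1 it was 0.26 (17 higher and 11 lower of 288). Chromosome 9 had a median of 0.18 (85 higher and 34 lower of 634), a share of 18.8%. Its median deviation was -0.104 to -0.088 in the controls and -0.012 to 0.099 in the exposed samples. Without control replicate 1 chromosome 9 had 37 higher and 24 lower genes of 645. Chromosome 4 had a median of -0.34, with 18 higher and 119 lower of 504, and here exposed replicate 2 stood apart, at 0.017 against -0.165 to -0.211 in the other exposed samples and 0.145 to 0.279 in the controls. Its median was -0.45 without exposed replicate 2, with 23 higher and 243 lower of 500. For chromosome 22 the median was -0.19 (13 higher and 50 lower of 380), a share of DEGs of 16.6% against 15.3% over all genes. Exposed replicate 2 lay at -0.242 there against -0.02 to -0.015 in the other exposed samples and 0.022 to 0.178 in the controls, and without it the median was -0.13 (26 higher and 80 lower of 378). When any 1 of the 7 samples was left out, the lower genes numbered 61 to 243 on chromosome 4 and 21 to 80 on chromosome 22, in both the fewest without control replicate 1, and the higher genes 42 to 87 on chromosome 21, again the fewest without control replicate 1. Of the genes named above, LSS, MX1 and MX2, which rose, lie on chromosome 21, as does ADAMTS5, which fell (log2 fold change -6.18). Whether copy number differs between the cultures was not measured.

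The change at 30 weeks was also set against the change at 15 weeks, where 2 exposed and 2 control samples of batch 1 were compared. All 15 samples entered 1 fit with a spread shared between the time points, and the earlier samples varied less. The SEs and p-values of the difference may therefore be too small. For the 30-week contrast the same fit called 3961 DEGs, against 2370 in the fit of the 7 samples. The difference of the 2 changes passed the test in 794 of 16740 genes (4.74%), and in 32 of the 40 genes named for the largest changes at 30 weeks. These genes were chosen on the 30-week contrast, which enters the difference, so the count is a description. KRT8 averaged 545 CPM in control and 588 CPM in exposed cells at 15 weeks, and the difference of the changes was 1.93 (SE 0.25, adjusted p = 0.000159). COL4A5 averaged 52.8 and 45.5 CPM at 15 weeks, with a difference of 3.56 (SE 0.21). For MYOD1, at 3.87 and 1.46 CPM at 15 weeks, it was -6.11 (SE 0.57). Among the other 8 were CHRNA1, TRIM72, TSHZ3, DUSP13B, JSRP1, CDH15 and H3C1. For CHRNA1, TRIM72, TSHZ3 and DUSP13B the exposed cells of 15 weeks had no count, and the difference could not be estimated usefully.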

How the data were processed

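Total RNA of BEAS-2B cells was sequenced after ribosomal depletion with a stranded kit. Per the study's methods and the submitters' processing notes, the authors trimmed reads with Rfastp, mapped them to the human genome (GRCh38, hg38) and deposited whole-number read counts per gene made with featureCounts. Whether strand was used in counting and how multi-mapping reads were treated is not given in the sources used here. From these counts, the 7 samples of 30 weeks were fitted with edgeR 4.0.16 in R 4.3.3 (TMM scaling, filterByExpr, quasi-likelihood test), with Benjamini-Hochberg adjustment over the 15519 genes tested. The threshold was an adjusted p of 0.05. The change at 30 weeks minus that at 15 weeks came from 1 fit of all 15 samples. Levels are CPM on the TMM scale of the 15 samples, and SE was taken from the fold change and the F statistic.

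The 55 gene lists (2508 genes, 2025 tested), the named genes and the comparison itself were chosen with earlier results of these data known. Genes were named as the 12 largest changes in each direction among DEGs of at least 5 CPM without overlap, the 8 largest at 100 CPM or more, the 2 largest of each list at 1 CPM or more in its main direction and 1 in the other, and cell type markers. Other genes named were chosen after their values were seen, and some genes that the rule names are not reported here. Genes whose group was at 0 were set against a floor of 3 counts per library, and groups with 1 to 3 counts are given as ratios with exact 95% intervals, which cover counting error only. Where a call is said to be lost, the highest adjusted p is that over 18 alternative settings, which used edgeR, DESeq2 1.42.0, limma 3.58.1 and sva 3.50.0. The fit was tested on simulated data with 15317 genes tested, in which 83 of 100 genes changed by 2-fold and 100 of 100 changed by 4-fold were recovered with 14 false calls. The simulated samples were independent, with the same dispersion for every gene, no library set apart and changed genes at 1 CPM or more. These rates therefore do not cover a library like exposed replicate 2, technical replicates or genes near 0. Positions relative to the earlier samples were added after the data were seen. Sequences and coordinates are RefSeq, GRCh38.p14.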

Additional observations from a re-analysis of the deposited data

Results flagged for a closer look

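In 203 named genes, the exposed sample furthest from the others was compared with the range of its group of 4, and in 13 genes its gap to the nearest sample exceeded Dixon's critical share of that range at the 95% level. Chance alone gives such a gap in about 1 in 20 groups, and 13 of 203 genes is near that share. In 11 of the 13 the sample was exposed replicate 2. Among the muscle genes the gap was 0.847 of the range for CHRNA1, 0.866 for JSRP1, 0.973 for RAPSN, 0.888 for MEF2C and 1.0 for TRIM72, in each case with the highest exposed value in that library. It was 1.0 for EBF3, a neural and mesodermal factor, 0.892 for DMBT1, 0.893 for SPCS3, a signal peptidase subunit, 0.889 for LAMA3, 0.845 for HOXC8 and 0.834 for CD274. The remaining ones were H3C1 (0.863) and IGFBP7 (0.903), in both of which exposed replicate 1 was the lowest. Genes near 0 in exposed cells can reach such a gap through a few reads in 1 library. CHRNA1, for example, had 0, 13, 2 and 0 counts in the exposed samples. A gap of 1.0 means that the other exposed samples had equal levels. The cause was not tested.

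The change at 30 weeks differed from the change at 15 weeks in 32 of the 40 genes with the largest changes, by the quasi-likelihood test of edgeR on the interaction. These genes were chosen on the 30-week change, which enters the difference, so the count is a description. Over all genes the share was 4.74% (794 of 16740). The fit shared its spread with the less variable earlier samples, so its p-values may be too small. Batch and time cannot be told apart in this difference. On the log2 scale it was 5.09 for CHRDL1, 4.05 for COL4A6, 3.89 for DSG2, 3.77 for MLPH, 3.67 for PRKCZ, 3.56 for COL4A5, 3.34 for SLIT2, 3.29 for NFIA, 3.19 for KIT and 3.04 for IGFBP7. Values between 2 and 3 were 2.97 for TFAP2C, 2.90 for AHNAK2, 2.83 for SLC47A1 and 2.29 for FN1. Smaller positive values were 1.93 for KRT8, 1.64 for IL7R, 1.60 for STOM, 1.48 for TNC and 1.44 for GPRC5A. Negative values were found for RAPSN (-7.76), MYOD1 (-6.11), TNNT2 (-5.78), VCAM1 (-5.73), DMBT1 (-4.96), ID2 (-2.77), ZBTB20 (-2.11), TNNT1 (-2.06), HTRA1 (-1.88), NNMT (-1.74), SPCS3 (-1.62) and ATP2B1 (-1.53).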

How the results depend on the processing

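The 2370 DEGs became 3961 when all 15 samples shared a fit, 5665 with limma-voom and surrogate variables over the 15 samples, 1160 at an adjusted p under 0.01, 1262 when a change of at least 2-fold was also asked for, and 1345 to 4336 when single samples were left out, the highest without exposed replicate 2 and the lowest without control replicate 1. Other settings gave 1795 to 3015, and 1664 to 2366 of these were shared with the 2370 genes. The difference between the 30-week and 15-week changes passed in 794 genes, in 1973 with surrogate variables and in 622 to 1519 when single samples were left out. All 40 genes with the largest changes were called in every alternative that tested them. The numbers of the replicates did not pair the samples (correlation of deviations -0.161, 0.363 and 0.119), and a fit with the replicate number as a block gave 1795 DEGs and 670 differences between times. With it the calls of ATF3, CD274, CXADR, HOXB4, HOXB7, HOXC5, ID3, JUN, JUNB and MKI67 were lost.

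Of the named genes, 2 that did not pass the test, CDH1 and KRT7, changed sign. The log2 fold change of CDH1 was 0.037 with surrogate variables and -0.359 to 0.108 when single samples were left out, positive without control replicate 1. That of KRT7 was 0.007 with all 15 samples in the fit, 0.008 with DESeq2, 0.017 with surrogate variables, 0.002 after thinning and 0.116 with the replicate block, and -0.398 to 0.293 when single samples were left out, positive without control replicate 1 or exposed replicate 1, 3 or 4. The medians of 15 lists changed sign in at least 1 alternative, the largest of them in size being 0.66 for endothelial markers. Asking for at least 10 counts in every sample left 5 of the 15 downregulated contractile genes (median -0.56 in place of -2.66) and 5 of the 15 downregulated myogenic regulators (-1.35 in place of -3.99), since the filter removes genes near 0 in exposed cells. Thinning all libraries to the smallest, of 26535277 counts, gave 2301 DEGs.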
